A study of Mus musculus with 29 samples.

Results

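The Wnt ligands, their Frizzled receptors, the R-spondins and the R-spondin receptors Lgr4 to Lgr6 were followed in the aortic arch of mice treated with an antibody against sclerostin. The genes were chosen by symbol (Wnt, Fzd or Rspo with its number, and Lgr4, Lgr5 and Lgr6), with no measured value involved. This gave 36 of the 51456 genes in each library: 19 Wnt, 10 Fzd, 4 Rspo and 3 Lgr genes. A gene was counted as detected when its value was at least 1 in at least 9 of the 29 libraries, and 18 of the 36 were.

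Wnts are secreted, lipid-modified proteins that bind a Frizzled receptor on the cell surface. Where the co-receptor Lrp5 or Lrp6 joins the complex, beta-catenin is stabilised and enters the nucleus to act with TCF/LEF factors. Other Wnts, such as Wnt5a and Wnt11, act mainly through polarity and calcium signalling. R-spondins bind Lgr receptors and the ubiquitin ligases Znrf3 and Rnf43, which otherwise remove Frizzled from the membrane, so R-spondins raise the response to Wnt. Sclerostin, the product of Sost, is secreted by bone cells and by arterial smooth muscle and blocks Lrp5 and Lrp6.

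The libraries were made from male C57BL/6 mice labelled 14 weeks of age and kept on chow. In the vehicle group (9 libraries), mice without apolipoprotein E (ApoE KO) carried a pump releasing 0.11 µL/hr of a 15.27 mg/mL solution of angiotensin II (AngII) and were injected with vehicle. The Scl-Ab group (10 libraries) had the same genotype and pump and received the sclerostin antibody at 10 mg/kg weekly under the skin for 4 weeks. The WT group (10 libraries) had normal Apoe and received vehicle in the pump and in the injections, so genotype and AngII differ together between WT and the other groups. The protocol gives 9 WT mice against 10 WT libraries, so n counts libraries.

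The libraries had 12558 to 13397 genes at a value of at least 1. Per library, about 31.8 to 43.6 fragments made up 1 unit of value for a 2 kb gene, as estimated from the steps between low values. Apoe lay between 146 and 363 in WT and did not exceed 12.5 in the ApoE KO groups, as the labels say. The arch expressed its defining smooth muscle markers (Myh11, Acta2, Tagln, Cnn1, Smtn and Lmod1). Their summed value was 16991 to 20402 in WT, 4822 to 16400 with vehicle and 5459 to 13186 with Scl-Ab. The 6 macrophage markers summed to 43.6 to 147 in WT, 326 to 764 with vehicle and 255 to 688 with Scl-Ab. Fat cell markers were present in every group and ranged widely (38.9 to 963 in WT, 301 to 4887 with vehicle, 378 to 3230 with Scl-Ab). Of the 6 fibroblast markers, 3 were higher with vehicle than in WT, as were 4 of 6 endothelial markers and 22.7% of all genes tested. The endothelial markers summed to 98.7 to 184 in WT, 166 to 231 with vehicle and 86.2 to 214 with Scl-Ab. In whole tissue, fewer cells of a type and less RNA per cell cannot be told apart.

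Lgr6 was by far the highest of the 36 genes in WT arches, at 107 ± 7.39 (SD, n = 10) on the deposited, length-scaled expression value. It made up 90.4 to 92.1% of the summed Lgr values in WT. Lgr4, which is expressed in many tissues, was at 9.83 ± 0.553. Among the receptors, Fzd7 (43.3 ± 7.71), Fzd1 (35.6 ± 4.45) and Fzd2 (33.8 ± 4.44) led in WT, and neighbours in this order did not differ beyond their spread. Fzd4, the receptor that also binds norrin, followed at 17.4 ± 5.62. Fzd8 (9.37 ± 1.06), Fzd6 (5.75 ± 0.655) and Fzd5 (3.82 ± 0.395) were lower.

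Wnt16 was the highest ligand in each group and was at 16.2 ± 4.06 in WT (n = 10). Wnt5a (6.39 ± 1.89) and Wnt9a (6.32 ± 1.36) came next in WT and did not differ beyond their spread. Wnt5b was at 2.38 ± 0.397 in WT. Wnt11 (1.28 ± 0.573), Wnt2b (1.25 ± 0.417) and Wnt2 (0.788 ± 0.467) lay near the limit of detection in WT. Of the R-spondins, Rspo3 (4.58 ± 1.02) stood above Rspo1 (0.677 ± 0.325). Wnt2 and Rspo1 met the detection rule mainly through the ApoE KO groups. Wnt2 was at 1 or more in 3 of 10 WT, 8 of 9 vehicle and 6 of 10 Scl-Ab libraries. Wnt2b met the rule mainly through WT. It was at 1 or more in 8 of 10 WT, 3 of 9 vehicle and 4 of 10 Scl-Ab libraries.

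The order of the receptors by mean differed between the groups. Fzd1 led the Frizzled genes with vehicle (36.3 ± 3.52, n = 9) and with Scl-Ab (44.5 ± 6.21, n = 10), in place of Fzd7 (26.5 ± 9.39 and 30.6 ± 7.57). Fzd1 and Fzd7 differed beyond their spread with Scl-Ab, but not with vehicle or in WT. The sum of all Frizzled values was 126 to 168 in WT, 102 to 140 with vehicle and 112 to 153 with Scl-Ab. The summed Lgr values were 104 to 125 in WT, 43.6 to 90.7 with vehicle and 42.4 to 106 with Scl-Ab. Lgr6 stayed the highest gene of the set by mean in all groups, at 66.4 ± 13.7 with vehicle and 61.1 ± 22.3 with Scl-Ab.

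**Figure D1:**
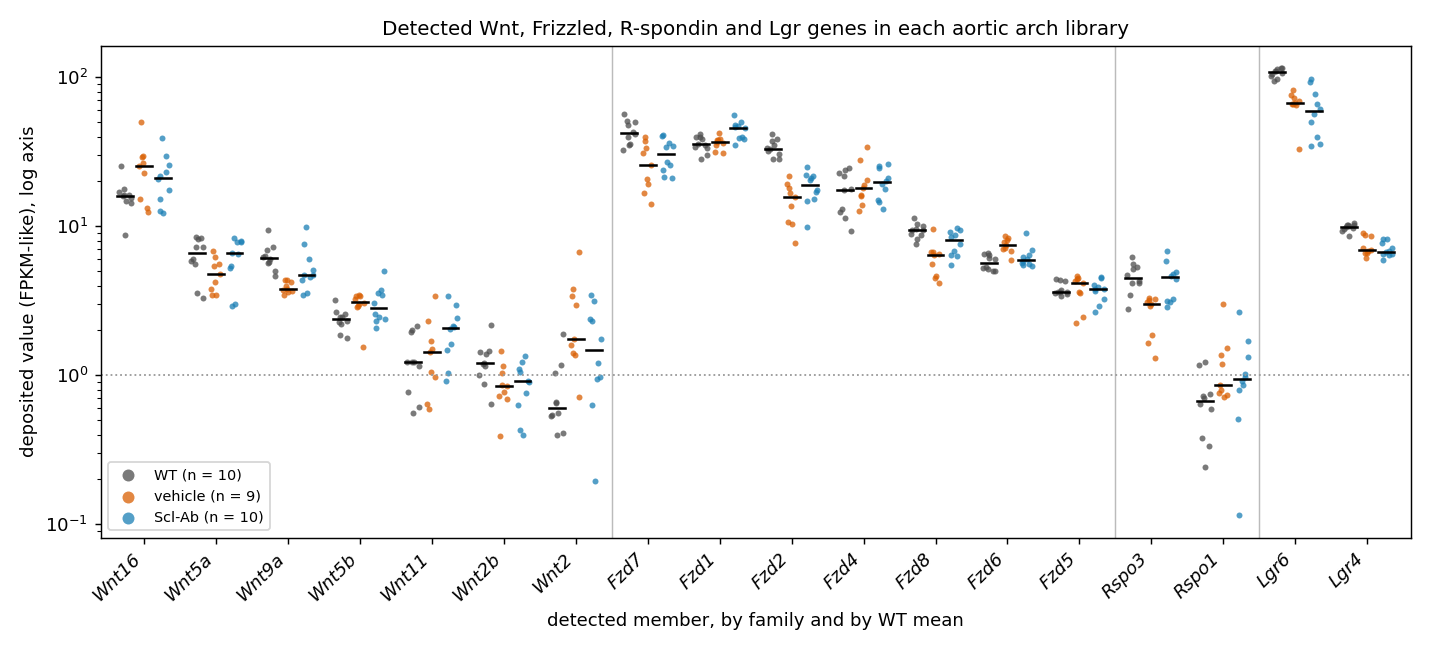
Deposited value (FPKM-like, log axis) of the 18 detected genes in each of the 29 libraries, with 1 point a library, black bars at group medians and a dotted line at the detection value of 1. Lgr6 lies above all other genes in WT (93.7 to 115), and the vehicle and Scl-Ab points of Lgr6, Lgr4, Fzd7 and Fzd2 lie mostly under the WT points.

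The promoters of 4 genes are shown because the results below turn on these genes: Fzd7, Lgr4 and Lgr6 were lower than WT in both ApoE KO groups, and Fzd1 was higher with Scl-Ab. Each line gives the 250 bases before the RefSeq transcription start (GRCm38.p6), 5′ to 3′ on the gene's strand. Capitals mark matches, on either strand, to the GC box GGGCGG, the TATA box TATAAA, the TCF/LEF core CTTTGA or the E-box CACGTG. A match on the other strand appears as the reverse complement of its motif. The windows are chr1:59481897-59482146 for Fzd7 (plus strand), chr2:109917397-109917646 for Lgr4 (plus strand), chr1:135105277-135105526 for Lgr6 (minus strand) and chr5:4758217-4758466 for Fzd1 (minus strand).
Fzd7: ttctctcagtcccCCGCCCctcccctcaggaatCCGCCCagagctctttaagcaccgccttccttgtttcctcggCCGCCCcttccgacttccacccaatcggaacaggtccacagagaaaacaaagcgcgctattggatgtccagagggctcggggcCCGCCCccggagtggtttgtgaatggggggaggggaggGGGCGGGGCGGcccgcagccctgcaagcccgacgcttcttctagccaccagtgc
Lgr4: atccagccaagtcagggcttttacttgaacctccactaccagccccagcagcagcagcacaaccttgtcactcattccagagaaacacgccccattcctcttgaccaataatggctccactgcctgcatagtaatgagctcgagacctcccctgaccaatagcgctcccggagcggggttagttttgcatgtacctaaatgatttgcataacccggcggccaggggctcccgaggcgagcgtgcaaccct
Lgr6: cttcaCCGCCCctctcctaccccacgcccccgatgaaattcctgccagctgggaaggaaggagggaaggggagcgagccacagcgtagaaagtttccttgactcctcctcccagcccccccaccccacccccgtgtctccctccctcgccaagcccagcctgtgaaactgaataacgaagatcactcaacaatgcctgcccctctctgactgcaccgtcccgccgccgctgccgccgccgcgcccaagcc
Fzd1: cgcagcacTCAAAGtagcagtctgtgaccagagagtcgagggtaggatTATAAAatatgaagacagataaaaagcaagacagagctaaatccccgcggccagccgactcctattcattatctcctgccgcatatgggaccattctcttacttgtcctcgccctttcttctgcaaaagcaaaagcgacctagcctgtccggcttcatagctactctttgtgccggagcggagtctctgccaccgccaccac
The window of Fzd7 held 6 GC boxes, of which the last 2 share a base, and that of Lgr6 held 1. The Fzd1 window held 1 TCF/LEF core and 1 TATA box letter match, at 242 and 202 bases before the start, and no GC box. None of the 4 motifs was found in the Lgr4 window. Over all 32851 RefSeq promoter windows of this length, 32.7% held a GC box, 13.8% the TCF/LEF core, 12.4% the TATA box and 6.02% the E-box. The matches are letters in these windows only. Of the 18 detected genes, 13 had a RefSeq entry in this table, and Wnt5a, Fzd2, Fzd6, Fzd8 and Rspo3 did not.

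The first comparison, vehicle against WT, asks how the diseased arch differed from the healthy one before any antibody. In the ApoE KO mice with AngII, the receptors Fzd2, Fzd7, Fzd8, Lgr4 and Lgr6 fell, together with the ligand Wnt9a and the R-spondin Rspo3. Wnt2, Wnt16 and Fzd6 rose. These 10 of 18 detected genes (55.6%) passed limma's test at an adjusted p under 0.05, against 53.7% of all 13510 genes tested, so the share is near that of any gene. Rises made up 3 of 18 (22.7% of all genes rose) and falls 7 of 18 (31.0% of all genes fell). Among the rises, Wnt2 met the detection rule mainly through the ApoE KO groups, so its call is no support. The median log2 fold change was -0.15 over the 18 genes and -0.04 over all genes tested. P-values measure the spread between these libraries.

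Fzd2, a receptor for both beta-catenin and polarity signalling (chr11:102604396-102608058), was 28.1 to 41.5 in WT (median 33.1) and 7.78 to 21.7 with vehicle (median 15.6). The groups did not overlap, and every vehicle library lay under every WT library. The fitted ratio was 0.441 (log2 -1.18, SE 0.15, adjusted p = 2.83e-07), on the scale of log2(value + 1) as are all fold changes here.

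Fzd7, a receptor known from stem cells and mesoderm (chr1:59482424-59486955), ran from 32.6 to 56.3 in WT (median 42.5) and from 14.1 to 40.0 with vehicle (median 25.9). The highest vehicle libraries reached into the WT range. It fell to 0.595 of WT (log2 -0.75, SE 0.17, adjusted p = 0.000515). Fzd8, a high-affinity Wnt receptor, ran from 7.66 to 11.4 in WT (median 9.42) and from 4.17 to 9.57 with vehicle (median 6.40), with a single vehicle library (replicate 5) above the others. Its ratio was 0.671 (log2 -0.58, SE 0.11, adjusted p = 7.95e-05).

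Fzd6, which acts in planar cell polarity and can restrain beta-catenin signalling (chr15:39006034-39038188), moved the other way. It was 4.98 to 6.64 in WT (median 5.71) and 5.96 to 8.54 with vehicle (median 7.50), with overlapping groups. The ratio was 1.26 (log2 0.33, SE 0.07, adjusted p = 0.000558). Fzd1, Fzd4 and Fzd5 did not pass the test. Their ratios had 95% intervals of 0.912 to 1.14, 0.868 to 1.46 and 0.851 to 1.12.

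Both detected R-spondin receptors fell. Lgr6 (chr1:134983301-135105276) was 93.7 to 115 in WT (median 108) and 33.1 to 81.9 with vehicle (median 66.7), and no vehicle library reached the WT range. Its ratio was 0.611 (log2 -0.71, SE 0.17, adjusted p = 0.000753). Lgr4 (chr2:109917647-110014257) was 8.57 to 10.4 in WT (median 9.95) and 6.08 to 9.05 with vehicle (median 6.97). The groups met at their edges, and the ratio was 0.772 (log2 -0.37, SE 0.07, adjusted p = 2.4e-05). Of the 10 genes called against WT, 9 kept their call when any 1 library was left out, with log2 -0.75 to -0.59 for Lgr6, and the exception was Wnt16.

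Rspo3, a secreted partner of these receptors that is needed for blood vessel formation in the embryo (chr10:29452416-29535867), ran from 2.78 to 6.18 in WT (median 4.50) and from 1.30 to 3.31 with vehicle (median 2.99). The ratio was 0.644 (log2 -0.63, SE 0.14, adjusted p = 0.000531). Rspo1 was 0.244 to 1.23 in WT and 0.718 to 3.01 with vehicle and did not pass (adjusted p = 0.0678). It passed without WT replicate 28 or 29 or Scl-Ab replicate 12 or 18 (0.0438 to 0.0483). Rspo3 made up 79.6 to 95.5% of the summed R-spondin values in WT and 36.6 to 78.6% with vehicle.

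Among the ligands, Wnt9a (chr11:59306928-59333552) was 4.62 to 9.45 in WT (median 6.11) and 3.48 to 4.35 with vehicle (median 3.79). The vehicle libraries lay close together and under all WT libraries, and the ratio was 0.678 (log2 -0.56, SE 0.13, adjusted p = 0.000472). Groups that did not overlap, with vehicle lower, were thus seen for 3 of 18 genes (Fzd2, Wnt9a and Lgr6), against 9.04% of all genes tested. None of the 18 lay wholly above WT, against 7.81% of all genes.

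Wnt2, a ligand of the beta-catenin arm (chr6:17988940-18030585), was 0.397 to 1.90 in WT (median 0.606) and 0.711 to 6.67 with vehicle (median 1.75). The groups overlapped, 4 of 9 vehicle libraries were above every WT library, and the ratio was 1.88 (log2 0.91, SE 0.24, adjusted p = 0.00241). Wnt2 met the detection rule mainly through the ApoE KO groups (3 of 10 WT libraries at 1 or more, against 8 of 9 with vehicle), so this call is no support. Wnt16, the main ligand here (chr6:22288227-22298522), was 8.71 to 25.3 in WT (median 16.0) and 12.5 to 49.7 with vehicle (median 25.4). The ratio was 1.43 (log2 0.51, SE 0.22, adjusted p = 0.0495). This call is at the threshold: it was kept when 1 of 8 libraries was left out (WT 22, vehicle 1, 4 and 9, Scl-Ab 10, 13, 16 and 17) and lost when any of the other 21 was, with adjusted p between 0.0504 and 0.125, the highest without vehicle replicate 5. It was also lost in 5 of 10 other settings (highest adjusted p = 0.194).

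Wnt5a, the main ligand of polarity signalling, was 3.29 to 8.51 in WT and 3.46 to 6.87 with vehicle and did not pass (adjusted p = 0.137). Wnt5b (adjusted p = 0.083), Wnt11 (0.646) and Wnt2b (0.0613) did not pass either. Wnt2b passed without WT replicate 21 or 25, vehicle replicate 5 or 6 or Scl-Ab replicate 17 (0.0258 to 0.0495). Wnt5b passed without vehicle replicate 1 (adjusted p = 0.0115), the library with its lowest value. Wnt5b shares its locus with Fbxl14 on the other strand. The libraries were stranded, but whether the counting used strand is not stated, so reads of the pair may be mixed. Among the other detected genes, Rspo3 overlaps Gm20276 on its own strand and Gm48159 on the other. Wnt2b overlaps Gm43846 on its own strand. Wnt5a, Wnt11, Fzd5, Fzd6 and Rspo1 each overlap an annotated gene or pseudogene on the other strand. The same caution holds for these genes.

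**Figure D2:**
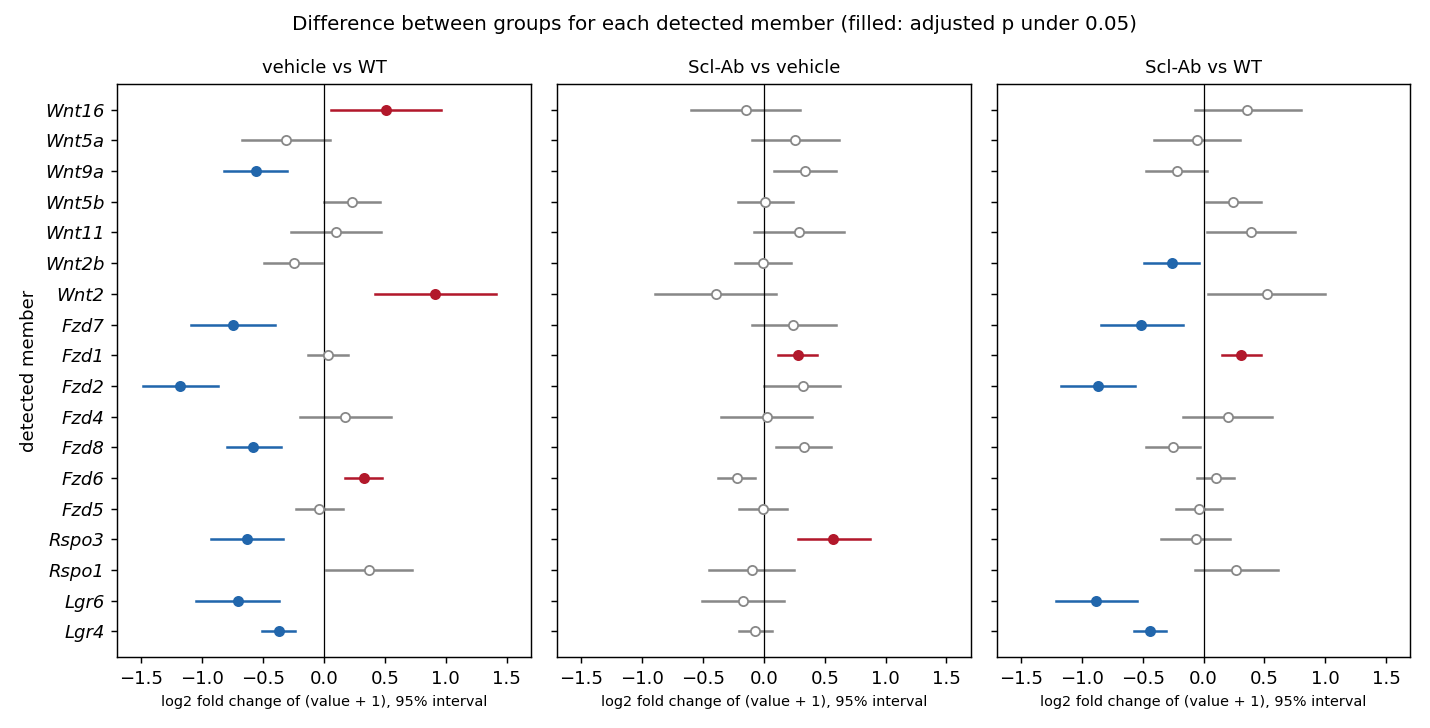
Log2 fold change of (value + 1) with its 95% interval for each of the 18 detected genes in the 3 comparisons, filled red (higher) or blue (lower) where the adjusted p is under 0.05. Vehicle against WT shows 7 genes lower and 3 higher, and Scl-Ab against vehicle shows Fzd1 and Rspo3 higher.

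The second comparison, Scl-Ab against vehicle, asks what the antibody changed in the diseased arch. Fzd1 and Rspo3 rose, and none of the 18 detected genes fell. The 2 calls are 11.1% of the 18 genes, against 7.44% of all 13510 genes tested, of which 2.64% rose and 4.80% fell. By limma's unadjusted p, 6 of the 18 were under 0.05, 5 of them higher and 1 lower. The share of all genes under this unadjusted threshold was not worked out, so the count is no result about the set. Every one of the 18 overlapped between the groups, as did nearly all genes (0.0296% of all genes lay wholly higher and 0.111% wholly lower). The exact Wilcoxon test called 0 of the 18 after adjustment. It had 4 at an unadjusted p under 0.05, again without the share over all genes. The median log2 fold change was 0.02 over the 18 genes and -0.01 over all genes.

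Rspo3 had been lower with vehicle than in WT. It was 1.30 to 3.31 with vehicle (median 2.99) and 2.89 to 6.80 with Scl-Ab (median 4.55). The lowest Scl-Ab libraries lay within the upper vehicle range, and the others were above it. The ratio was 1.49 (95% interval 1.21 to 1.82, log2 0.57, adjusted p = 0.018), and it kept its call when any 1 library was left out. Of 11 other settings, it lost the call in 3: the fit of the compared groups only (adjusted p = 0.0525), the exact Wilcoxon test (0.110) and the clock index as covariate (0.910). Against WT, the ratio with Scl-Ab was 0.957 (0.784 to 1.17, adjusted p = 0.725). The vehicle libraries are shared by the fall and the rise of Rspo3, so these are not independent.

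Fzd1, a receptor of the beta-catenin arm (chr5:4753839-4758035), was 30.8 to 42.3 with vehicle (median 37.0) and 35.3 to 55.6 with Scl-Ab (median 46.0), with overlapping groups. The ratio was 1.21 (95% interval 1.08 to 1.36, log2 0.28, adjusted p = 0.032). The call was lost, with adjusted p between 0.0509 and 0.055, without vehicle replicate 7 or without Scl-Ab replicate 12, 16, 18 or 19. It was also lost in 6 of 11 other settings: array weights (adjusted p = 0.0553), the exact Wilcoxon test (0.0541), the compared groups only (0.0681), equal totals (0.0747), no low-value filter (0.0759) and the clock index as covariate (0.868). Against WT (28.1 to 41.8, median 35.6), Fzd1 with Scl-Ab was also higher, at a ratio of 1.24 (1.11 to 1.39, adjusted p = 0.00149).

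The daily clock moved with this comparison, and its index was also lower with vehicle than in WT in the mean. The index was put in the fit of Scl-Ab against vehicle only, so the calls of vehicle against WT stand without it. The mean log2 value of 8 clock output genes, among them Dbp and Per3, minus that of 4 opposite-phase genes, among them Arntl, was 0.58 ± 1.16 with vehicle (n = 9), 3.01 ± 0.63 with Scl-Ab (n = 10) and 2.53 ± 1.55 in WT (n = 10). With this index in the fit, the log2 difference of Rspo3 was 0.26 (adjusted p = 0.910) and that of Fzd1 was 0.19 (adjusted p = 0.868), and 3 genes of all those tested were called. The index itself differed between the groups, and its part in the difference of Rspo3 and Fzd1 was not tested. Of 6 endothelial markers, 3 fell with Scl-Ab (4.80% of all genes did), and their median log2 difference was -0.44. Their sum was 98.7 to 184 in WT, 166 to 231 with vehicle and 86.2 to 214 with Scl-Ab. Of 6 heart muscle markers, 1 passed as higher (2.64% of all genes did), but their median log2 difference was 2.08. The heart muscle sum was 24.6 to 391 with vehicle and 37.0 to 887 with Scl-Ab. The part of these markers in the differences was not tested either.

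No other gene of the set passed between Scl-Ab and vehicle. Fzd6 was 5.96 to 8.54 with vehicle and 5.42 to 9.00 with Scl-Ab (ratio 0.856, 0.770 to 0.951, adjusted p = 0.0609), and it passed without vehicle replicate 4 (0.0323) or without Scl-Ab replicate 13 (0.012), whose value was the highest. Fzd8 was 5.46 to 9.68 with Scl-Ab (ratio 1.26, 1.07 to 1.47, adjusted p = 0.0626), and it passed without vehicle replicate 5 (0.0214) or Scl-Ab replicate 10 (0.0297). Wnt9a was 3.48 to 9.83 with Scl-Ab (ratio 1.26, 1.06 to 1.51, adjusted p = 0.0924), and it passed without Scl-Ab replicate 10 (0.0483). Fzd6, Fzd8 and Wnt9a thus lay between vehicle and WT in their means with Scl-Ab, without passing the test against vehicle.

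Lgr6 was 34.8 to 97.1 with Scl-Ab (median 59.2), a wider spread than with vehicle, and the 95% interval of its ratio to vehicle was 0.703 to 1.13. Lgr4 was 5.90 to 8.22 with Scl-Ab (median 6.77), and the interval was 0.871 to 1.05. For Fzd2, 9.89 to 24.9 with Scl-Ab, the ratio was 1.24 (log2 0.32, SE 0.15, adjusted p = 0.196). For Fzd7, 20.9 to 40.9 with Scl-Ab, it was 1.18 (0.930 to 1.50, adjusted p = 0.398).

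Of the other ligands, Wnt16 was 12.2 to 39.2 with Scl-Ab (ratio 0.902, 0.661 to 1.23). Wnt2 was 0.195 to 3.48 (ratio 0.761, 0.539 to 1.07), and Wnt11 was 0.923 to 3.42 (ratio 1.22, 0.946 to 1.58). The ratio was 1.20 for Wnt5a (0.932 to 1.54), 1.01 for Wnt5b (0.862 to 1.18) and 0.994 for Wnt2b (0.845 to 1.17). Fzd4, Fzd5 and Rspo1 had ratios of 1.02, 0.995 and 0.933.

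**Figure D3:**
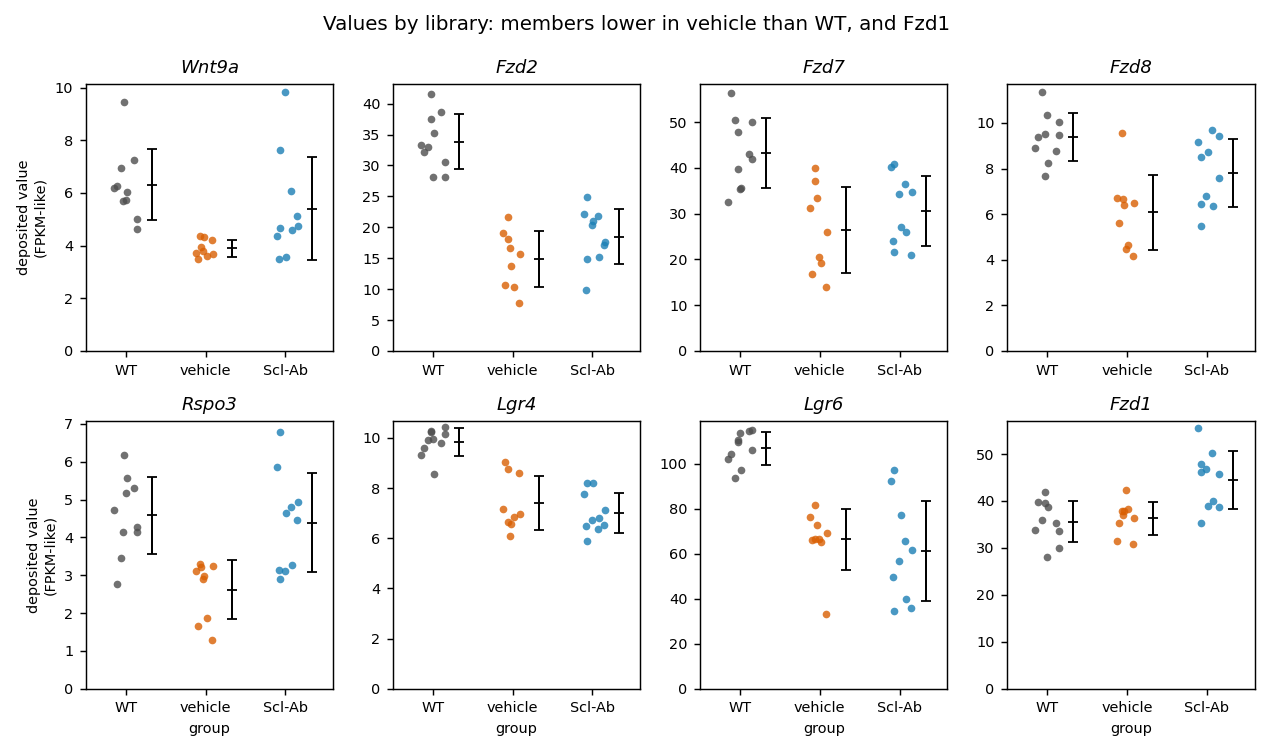
Deposited values by library for the 7 genes lower with vehicle than in WT and for Fzd1, with 1 point a library and the mean and SD beside the points. The vehicle points of Fzd2, Wnt9a and Lgr6 lie wholly under WT, and the Scl-Ab points of Rspo3 (2.89 to 6.80) and Fzd1 (35.3 to 55.6) lie mostly above the vehicle points.

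Against WT, 6 of the 18 genes (33.3%) passed with Scl-Ab, against 50.4% of all genes tested. Fzd1 was higher (19.8% of all genes were), and Fzd2, Fzd7, Lgr4, Lgr6 and Wnt2b were lower (30.5% of all genes were). Among the falls, Wnt2b met the detection rule mainly through WT, so its call is no support. Fzd2 was at a ratio of 0.549 (log2 -0.87, adjusted p = 2.04e-05) and Lgr4 at 0.738 (log2 -0.44, adjusted p = 1.55e-06), and neither overlapped WT in any library. Such a gap was seen downward for 6.54% of all genes, and upward for 5.74% of all genes and none of the 18. Lgr6 was at 0.544 (log2 -0.88, adjusted p = 5.18e-05), with the 2 groups touching at the top of the Scl-Ab range. Fzd7 was at 0.704 (log2 -0.51, adjusted p = 0.0117), a call lost with a fat cell marker index in the fit (log2 -0.23, adjusted p = 0.174).

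Wnt2b, at 0.64 to 2.19 in WT and 0.397 to 1.35 with Scl-Ab, had a ratio of 0.833 and an adjusted p of 0.0494. It was at 1 or more in 8 of 10 WT libraries, against 4 of 10 with Scl-Ab. This call was lost when any 1 of 20 libraries was left out (adjusted p 0.051 to 0.109), and was kept without WT replicate 21, 25 or 29, vehicle replicate 5 or 9, or Scl-Ab replicate 10, 12, 13 or 16. Of 10 other settings, 9 lost the call (adjusted p 0.0513 to 0.119), and array weights kept it (0.0429). Of the other genes, Fzd8 (adjusted p = 0.0563) passed without WT replicate 27 or 28, vehicle replicate 1 or 5, or Scl-Ab replicate 15, 16, 17 or 19 (0.0306 to 0.0493). Wnt11 (0.0627) passed without WT replicate 24, 25 or 26, vehicle replicate 1 or Scl-Ab replicate 18 or 19 (0.0299 to 0.0448). Wnt5b (0.0622) passed without WT replicate 29, vehicle replicate 1 or Scl-Ab replicate 12, 14, 17 or 18 (0.0309 to 0.0464). Wnt2 (0.0677) passed without WT replicate 23, vehicle replicate 1 or Scl-Ab replicate 17 or 18 (0.0188 to 0.0432), and Wnt9a (0.126) passed without Scl-Ab replicate 13 (0.0138). This comparison shares its WT libraries with the first and its Scl-Ab libraries with the second.

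Lgr6 and Fzd7 followed the smooth muscle markers from library to library within both ApoE KO groups. The mean log2(value + 1) of the 6 markers was 10.42 to 10.57 in WT, 8.49 to 10.06 with vehicle and 8.77 to 10.02 with Scl-Ab. Within the vehicle group (n = 9), Lgr6 correlated with it at r = 0.956 (rho = 0.933, exact permutation p = 0.000243 and 0.00075, adjusted over 30 relations 0.00177 and 0.00562). Within the Scl-Ab group (n = 10) the values were r = 0.937 and rho = 0.952 (permutation p = 0.00021 and 0.00011, adjusted 0.00177 and 0.00248). Without the 2 libraries farthest from the median of the markers, r was 0.851 with vehicle and 0.890 with Scl-Ab. As background, 0.955% of all genes tested had an r at least as high with vehicle and 0.600% with Scl-Ab.

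Fzd7 showed the same pattern, at r = 0.866 with vehicle (n = 9, rho = 0.900, exact permutation p = 0.000295 and 0.00203, adjusted 0.00177 and 0.0101). With Scl-Ab it was r = 0.912 (n = 10, rho = 0.927, permutation p = 0.00016 and 0.00026, adjusted 0.00177 and 0.0026). Leaving out the 2 farthest libraries gave r = 0.858 and 0.834, and 5.95% and 1.22% of all genes had an r at least as high. Fzd2 had r = 0.923 with vehicle (n = 9, rho = 0.967, exact permutation p = 4.4e-05 and 0.000165, adjusted 0.00132 and 0.00248) and r = 0.893 without the 2 farthest, and 2.52% of all genes had an r at least as high. With Scl-Ab Fzd2 had r = 0.546 and rho = 0.818 (n = 10, permutation p = 0.0991 and 0.00547, adjusted 0.248 and 0.0234), r was 0.606 without the 2 farthest, and 19.6% of all genes had an r at least as high.

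Rspo3 had r = 0.842 with vehicle (n = 9, rho = 0.733, exact permutation p = 0.00166 and 0.0311, adjusted 0.00832 and 0.0934), and 0.673 without the 2 farthest, and 7.66% of all genes had an r at least as high. With Scl-Ab it had r = 0.717 and rho = 0.879 (n = 10, permutation p = 0.0209 and 0.00145, adjusted 0.0705 and 0.0087), r was 0.876 without the 2 farthest, and 9.66% of all genes had an r at least as high. Lgr4 had r = -0.361 with vehicle (n = 9, rho = -0.133, exact permutation p = 0.365 and 0.744, adjusted 0.536 and 0.858), and -0.472 without the 2 farthest. With Scl-Ab it had r = 0.661 and rho = 0.564 (n = 10, permutation p = 0.0377 and 0.0954, adjusted 0.113 and 0.238), and 0.433 without the 2 farthest. Within WT, where the markers spanned a narrow range, r was 0.425 for Lgr6, 0.341 for Fzd7 and -0.041 for Fzd2. Of the other genes called with vehicle against WT, Wnt9a, which fell, had r = -0.072 with vehicle and -0.281 with Scl-Ab. Fzd8, which also fell, had r = 0.775 and 0.368. Among those that rose, r was 0.727 and 0.313 for Wnt16, 0.259 and -0.378 for Fzd6, and -0.58 and -0.127 for Wnt2. The markers were lower in the groups in which Lgr6, Fzd7 and Fzd2 fell, and the part of the markers in the fall was not tested. All values of a library share its depth and scaling, and these 30 relations were chosen after the data were seen.

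**Figure D4:**
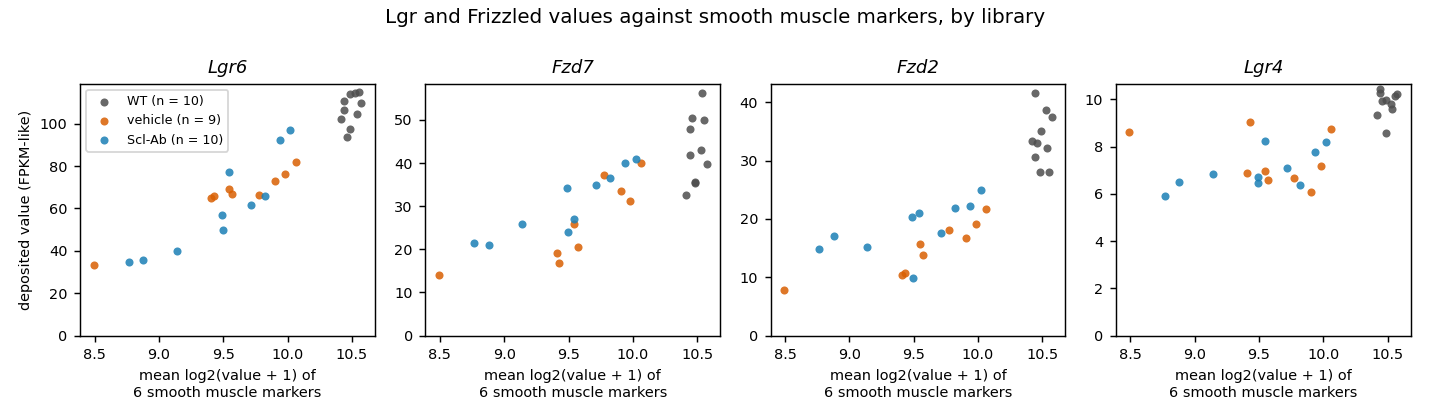
Deposited value of Lgr6, Fzd7, Fzd2 and Lgr4 against the mean log2(value + 1) of 6 smooth muscle markers, with 1 point a library, coloured by group. Lgr6 rises with the markers within the vehicle libraries (r = 0.956) and within the Scl-Ab libraries (r = 0.937), and the WT libraries lie together at 10.42 to 10.57.

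Of the 36 genes, 18 were not detected. Wnt3a was listed at 0 in all 29 libraries. Wnt3, Wnt7a, Wnt7b, Wnt8a and Wnt8b were listed at 0 in most libraries and did not exceed 0.0341 in any. The highest values of Rspo4 and Fzd10 were 0.089 and 0.113. Wnt1 reached 0.157, Wnt4 0.307 and Fzd3 0.619. Wnt6, Wnt9b, Wnt10a, Wnt10b, Fzd9, Rspo2 and Lgr5 made up the rest. Some of these differed between groups at low values, as tested in a fit of all genes with a value above 0 in any library. For vehicle against WT this fit called 8094 genes, 46.5% of them higher. The number of genes it tested is not given here, so no share of all genes stands beside these calls. A call alone is thus not read as setting a gene apart.

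Lgr5, a stem cell marker of the gut and a receptor for R-spondins (chr10:115450311-115587780), was 0.0119 to 0.159 in WT (median 0.0596), 0.0317 to 1.88 with vehicle (median 0.262) and 0.0267 to 2.09 with Scl-Ab (median 1.34). With Scl-Ab, 9 of 10 libraries were above every WT library. The log2 difference was 0.93 for Scl-Ab against WT (SE 0.20, adjusted p = 0.000617), 0.46 for vehicle against WT (adjusted p = 0.102) and 0.47 for Scl-Ab against vehicle (adjusted p = 0.273). Lgr5 overlaps A930009A15Rik on the other strand.

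Rspo2, another R-spondin (chr15:43020794-43170826), was 0 to 0.0789 in WT (median 0.0228), 0.0899 to 0.722 with vehicle (median 0.191) and 0.0755 to 1.46 with Scl-Ab (median 0.450). All 9 vehicle libraries were above all WT libraries, as was seen for 7.81% of the genes that met the detection rule. The log2 difference was 0.30 for vehicle (SE 0.10, adjusted p = 0.0316) and 0.54 for Scl-Ab (SE 0.10, adjusted p = 0.000108), both against WT. Between Scl-Ab and vehicle it was 0.25 (adjusted p = 0.242).

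Wnt10a, a ligand of skin, tooth and fat development (chr1:74791516-74804179), was 0 to 0.0623 in WT, 0.0609 to 0.240 with vehicle and 0.056 to 0.189 with Scl-Ab. It rose against WT in both groups (adjusted p = 0.000155 and 6.81e-05), at a level of few fragments per library. Fzd9 was 0.320 to 2.46 in WT (median 0.638), 0.737 to 2.14 with vehicle (median 1.38) and 0.466 to 2.09 with Scl-Ab (median 0.752). It rose with vehicle (log2 0.49, adjusted p = 0.0151), and Scl-Ab against vehicle did not pass (log2 -0.39, adjusted p = 0.193).

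Wnt6 was 0.111 to 0.419 in WT (median 0.316) and 0.0481 to 0.169 with vehicle (median 0.110), lower than WT (log2 -0.23, adjusted p = 0.0138). With Scl-Ab it was 0.106 to 0.866 (median 0.205) and did not pass against vehicle (adjusted p = 0.220). Wnt9b was higher with vehicle than in WT (0.397 against 0.110 in the mean, adjusted p = 0.0427). Wnt10b was higher with Scl-Ab than in WT (0.911 against 0.574, adjusted p = 0.0427). Wnt1 also passed as higher (0.0806 against 0.0255, adjusted p = 0.00635). Its means lay under 0.1, with 4 of 10 WT libraries at 0, so depth limits what this call can show.

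**Figure D5:**
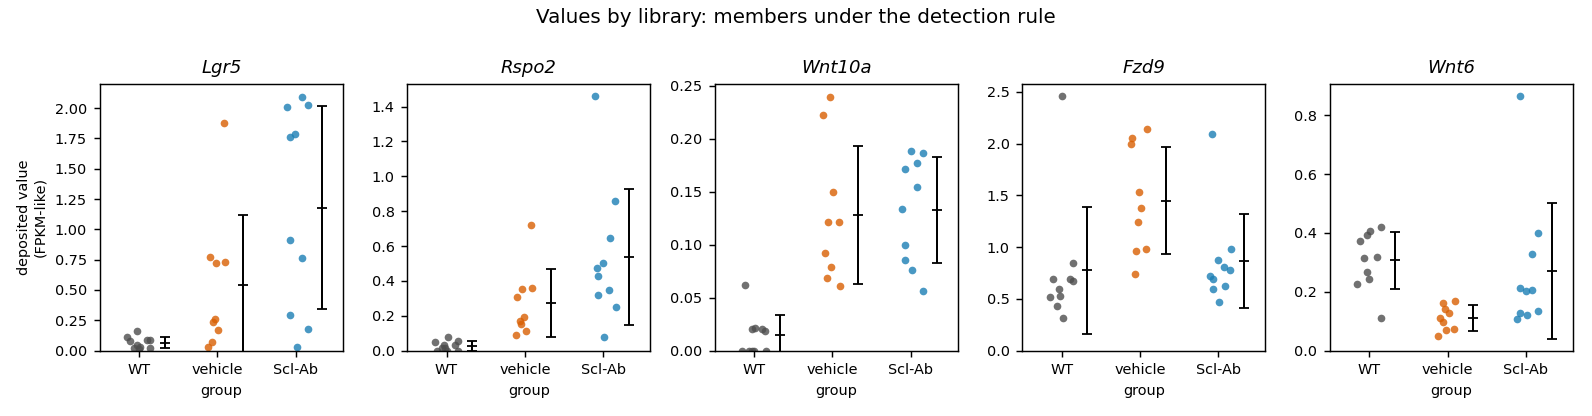
Deposited values by library for Lgr5, Rspo2, Wnt10a, Fzd9 and Wnt6, which did not meet the detection rule, with 1 point a library and the mean and SD beside the points. The vehicle points of Rspo2 (0.0899 to 0.722) lie above all WT points, and Lgr5 with Scl-Ab spans 0.0267 to 2.09.

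The other genes of the pathway were counted in lists by role. Porcn, which attaches the lipid to Wnts, fell with vehicle against WT (5.40 against 7.55 in the mean, ratio 0.748, adjusted p = 5.8e-06), while Wls, which carries Wnts to the surface, rose (88.2 against 72.0, ratio 1.21, adjusted p = 0.0147). Of the co-receptor list, Ror1 (ratio 1.26, adjusted p = 0.0217) and Ror2 (ratio 1.25, adjusted p = 0.0224), which bind Wnt5a, had a higher value, and 3 of the 5 tested did not pass. Ror2 was at 1 or more in 0 of 10 WT, 3 of 9 vehicle and 6 of 10 Scl-Ab libraries, so it was tested only through the ApoE KO groups and its call is no support. Lrp5 and Lrp6, the targets of sclerostin, were among the latter (adjusted p = 0.146 and 0.0782). Znrf3 did not pass with vehicle (adjusted p = 0.0805) and was lower with Scl-Ab than in WT (2.46 against 3.09, adjusted p = 0.00276), and Rnf43 was not tested because it was too low. Norrin (Ndp), the other ligand of Fzd4, fell to 0.566 of WT with vehicle (adjusted p = 1.61e-05).

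Of 10 secreted antagonists and Kremen genes tested, 5 rose and 2 fell with vehicle against WT, where 22.7% of all genes tested rose and 31.0% fell. Of the 5, Dkk2 (1.59 against 0.299 in the mean) was tested only through the ApoE KO groups. It was at 1 or more in 0 of 10 WT libraries and 5 of 9 with vehicle, so its call is no support. Also higher were Frzb (ratio 3.38, adjusted p = 2.82e-10), Sfrp1 (3.22, adjusted p = 2.27e-06) and Sfrp4 (2.50, adjusted p = 0.0011), which bind Wnts outside the cell. Wif1 (0.560, adjusted p = 0.000984) and Sost (0.585, adjusted p = 0.00459) fell. Of the 16 genes of the beta-catenin arm inside the cell, 9 fell (31.0% of all genes) and 1 rose (22.7% of all genes). Among them were Tcf7l2, a TCF factor (0.678, adjusted p = 4.24e-06), Dvl2, which relays the Frizzled signal (0.684, adjusted p = 4.36e-06), Gsk3a, a kinase of the pathway (0.737, adjusted p = 5.1e-09), and, higher, Apc (1.24, adjusted p = 0.00238).

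Of 7 tested genes often used as beta-catenin targets, 5 rose and 1 fell with vehicle against WT, beside 22.7% and 31.0% of all genes. The rises included Wisp1 (ratio 3.41, adjusted p = 7.65e-08), Ccnd1 (2.88, adjusted p = 5.81e-06) and Myc (2.08, adjusted p = 4.63e-05), which also respond to other signals. Nkd1, a feedback inhibitor of Wnt signalling, fell (0.541, adjusted p = 9.89e-07). Axin2, the remaining target tested, was 1.18 with vehicle against 1.57 in WT in the mean and did not pass (ratio 0.841, adjusted p = 0.063). Lef1, Tcf7 and Sp5 of the same list were too low to test. In the planar polarity list, 2 of 6 fell (31.0% of all genes did), Celsr2 (0.709, adjusted p = 1.03e-05) and Prickle1 (0.787, adjusted p = 0.0133). Between Scl-Ab and vehicle, the lists held 3 calls among 51 genes tested (5.88%, against 7.44% of all genes): Dvl2 rose (ratio 1.25, adjusted p = 0.0203), Nkd2, another feedback inhibitor, rose (1.34, adjusted p = 0.0216) and Csnk1a1, a kinase that primes beta-catenin for removal, fell (0.855, adjusted p = 0.0292).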

How the data were processed

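RNA sequencing of the aortic arch gave 29 libraries (WT 10, vehicle 9, Scl-Ab 10), grouped by their labels. Each deposited file held 1 FPKM-like value a gene for 1 library. The unit's name in the file headers (FPKQ) is not spelled out, and counts were not used. Per the labels' protocols, stranded mRNA libraries were made from RNA with an integrity number of at least 7. Per the submitters' processing notes, GRCm38 and DESeq2 1.10.1 are named without saying where each was used. How reads were aligned and counted is not given in the sources used here. The values carry no read totals, so depth was estimated from the steps between low values (76.8 to 79.5% of them lay within 0.05 of a whole step).

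The tests used limma (version 3.58.1, trend and robust options, R 4.3.3) on log2(value + 1), with all 29 libraries in 1 fit of 3 group means. The detection rule (1 or more in 9 or more libraries) left 13510 genes to test, and p-values were adjusted over them by the Benjamini-Hochberg method (called under 0.05). The log2(value + 1) scale understates the change of low genes. The fit was tested on simulated data. All 36 genes were accounted for, and in the other lists up to 3 called genes a list and direction, with Lrp5, Lrp6, Wls, Porcn, Znrf3 and Rnf43, were named. The set, the lists and the tests were chosen with earlier results of these data known. Alternatives were other pseudocounts (0.1 and 0.5), filters, scalings (trimmed mean of M values, TMM, written out for these values, and equal totals), fits of the compared groups only, array weights, the exact Wilcoxon test, marker indices as covariates and leaving out each library. Gene coordinates came from GENCODE M21 (GRCm38) and promoter sequences from RefSeq (GRCm38.p6).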

Additional observations from a re-analysis of the deposited data

Results flagged for a closer look

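Within a group, 1 library stood far from the others in 8 of 54 gene and group sets of the 18 detected genes, by the gap of the extreme value relative to the range of the group. The cut-off used gives about 1 in 20 for independent, normally distributed values. That rate was not worked out for these unlogged values of genes from the same libraries, so an excess over chance is not shown. In vehicle replicate 1, Lgr6 was 33.1, with the next value at 65.1, and Wnt5b was 1.54, with the next at 2.85. This library also had the highest summed fat cell markers (4887) and the lowest summed smooth muscle markers (4822) of its group. In vehicle replicate 5, Wnt16 was 49.7 (next 29.5) and Fzd8 was 9.57 (next 6.72), and this library had the highest summed smooth muscle markers of its group (16400) and the lowest fat cell markers (301). In vehicle replicate 6, Rspo1 was 3.01 (next 1.53). In WT replicate 23, Wnt2 was 1.90 (next 1.17) and Wnt2b was 2.19 (next 1.46), and it had the highest macrophage markers of the WT libraries (147). In Scl-Ab replicate 13, Fzd6 was 9.00 (next 6.96).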

How the results depend on the processing

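No paired analysis was possible because the groups share no replicate numbers. For vehicle against WT, the other settings called 9 to 14 of the 18 genes, and leaving out 1 library gave 9 to 11. The clock index was not among the settings of this comparison. For Scl-Ab against vehicle (2 genes), no low-value filter or equal totals gave 1. The fit of the compared groups only, the clock index as covariate and the exact Wilcoxon test gave 0. These 3 had 5, 1 and 4 at an unadjusted p under 0.05, without the share over all genes. Leaving out 1 library gave 1 to 4, the highest without Scl-Ab replicate 10. Over all genes, this comparison called 1005, against 447 with no filter, 369 with equal totals, 309 with the compared groups only, 413 with the exact Wilcoxon test and 3 with the clock index. Leaving out 1 library gave 547 to 1223, the fewest without vehicle replicate 2, and 628 and 607 without vehicle replicates 5 and 6. Of these calls 35.4% were higher, against 45.5% with TMM and 65.0% with equal totals. For Scl-Ab against WT (6 genes), array weights gave 12 and leaving out 1 library 5 to 9. For these 3 comparisons, no called gene of the set changed sign under any setting run. Detection at 0.5 or 2 in place of 1 left 22 or 15 genes. Depth limits statements on genes under a value of about 0.1.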
